A study of Homo sapiens with 6 samples.

Results

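Lineage markers of ovarian carcinoma were followed in SKOV3 cells, a human ovarian cancer cell line, after silencing of the transcription factor KLF5. The list of 10 genes was set by name, with earlier results of these data known. Counts set beside shares of all tested genes are therefore descriptive. PAX8, WT1, EMX2, SOX17, MECOM and ESR1 encode transcription factors, and MUC16, MSLN, WFDC2 and FOLR1 encode surface or secreted antigens. Of the 10 genes, 7 had a row among the 29185 genes of the deposited table, and WT1, EMX2 and SOX17 were not analysed here. Control SKOV3 cells (sh-NC, 3 libraries) carry the genotype WT in the sample labels, and the other group is labelled KLF5 knockdown (sh-KLF5, 3 libraries). The knockdown cells were stable lines made with a pLKO.1-EGFP-Puro vector. The paper does not state which vector, if any, the control cells carried, and sh-NC is the name used here for libraries titled NC. How many knockdown sequences or clones stand behind the libraries is not given in the sources used here, nor whether libraries of a group came from separate cultures, so p-values measure only the spread between these samples. The libraries were made from polyA RNA and held 15852319 to 17543896 counted reads in control cells and 16009859 to 16871350 in knockdown cells.

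The epithelia of the oviduct and uterus and most ovarian carcinomas share a Müllerian transcription program, in which the paired-box factor PAX8 is a defining member and ESR1, the estrogen receptor alpha, responds to hormone. Carcinomas with this program often display MUC16, a very long membrane mucin that carries the CA125 antigen, and mesothelin (MSLN), a lipid-anchored surface protein that binds MUC16. They also secrete HE4, the product of WFDC2, and bind folate through FOLR1, a lipid-anchored receptor. KLF5 is a zinc finger factor of the Krüppel-like family, whose members bind GC-rich and CACCC-type sequences.

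As a check of the labels, KLF5 (ENSG00000102554, chromosome 13) stood at 4371, 4425 and 4494 normalized counts in control libraries 1, 2 and 3, and at 1745, 1440 and 1436 in knockdown libraries 1, 2 and 3. A normalized count is a gene's read number after scaling by the size factor of its library. Knockdown cells kept 34.8% of the control mean, and the groups lay far apart (limma log2 fold change -1.53, SE 0.12, adjusted p = 2.47e-07).

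The antigens MUC16 and MSLN were lower in knockdown cells, at 35.0% and 61.2% of their control means, whereas PAX8 and WFDC2 did not pass the test. FOLR1, ESR1 and MECOM had too few reads to be tested. Groups were compared by limma on log2(normalized count + 1) across the 15803 genes that had enough reads, with Benjamini-Hochberg adjustment over all of them. A call required an adjusted p under 0.05 together with a log2 fold change beyond 1 in either direction, which 5.28% of all tested genes met. The filter on reads kept 4 of the 7 genes (PAX8, MUC16, MSLN and WFDC2). MUC16 was the 1 gene called lower, as were 3.37% of all tested genes. When the fold was set aside, 2 genes (MUC16 and MSLN) were lower at an adjusted p under 0.05, as were 6.85% of all tested genes, and 12.9% passed in either direction. No gene of the list was called higher by limma, against 1.90% of all tested genes, or 6.04% with the fold set aside. WFDC2 was the 1 gene higher at an unadjusted p under 0.05, and edgeR and DESeq2 each gave 0 higher genes at an adjusted p under 0.05. All knockdown libraries lay under all control libraries for 2 of the 4 tested genes (MUC16 and MSLN), an arrangement seen in 15.9% of tested genes. The untested FOLR1, which is outside that share, had the same arrangement, with nearest values of 3 reads in control library 1 and 2 in knockdown library 1. For no gene of the list did they all lie above, as they did in 15.4% of tested genes. The median log2 fold change of the 4 tested genes was -0.48, beside -0.0023 over all tested genes. In bulk RNA, fewer cells of a type and less RNA per cell cannot be told apart.

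**Figure D1:**
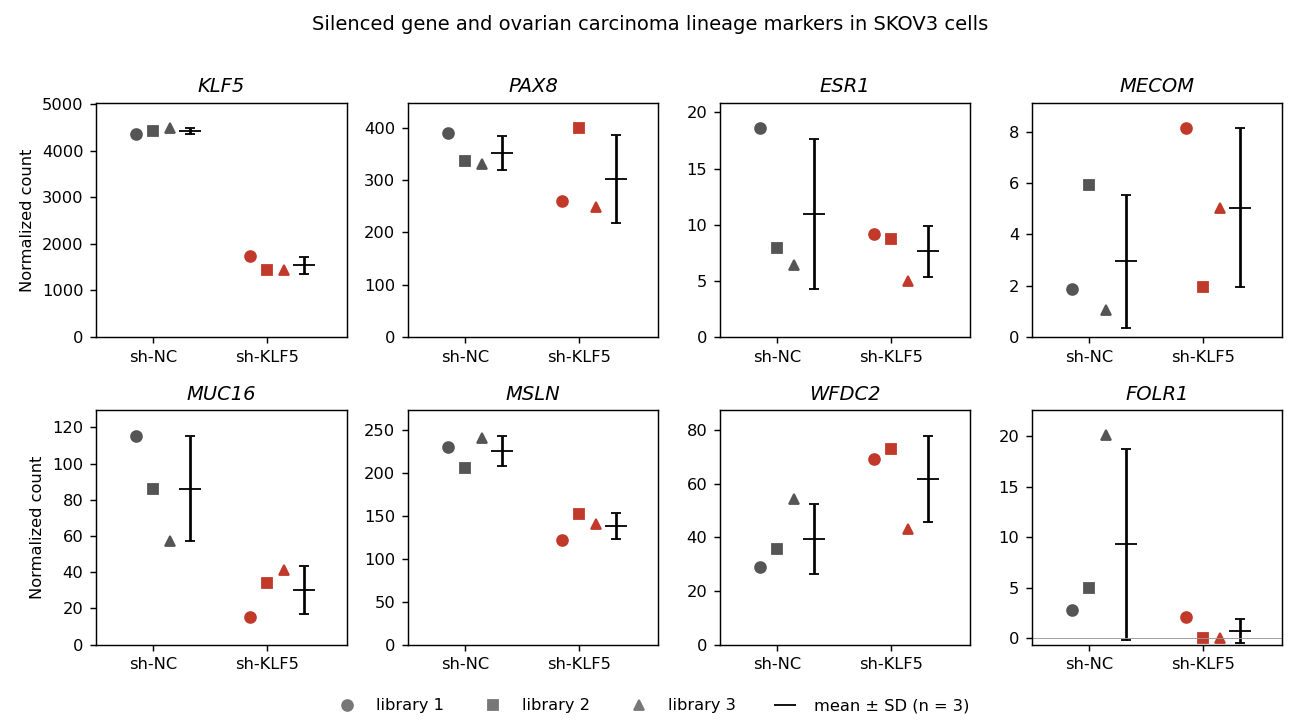
Normalized counts (y axis, own scale in each panel) of KLF5 and the 7 lineage markers in the 3 sh-NC and 3 sh-KLF5 libraries, with 1 symbol per library number and the mean ± SD beside each group. MUC16 and MSLN have every sh-KLF5 library under every sh-NC library, as do 15.9% of tested genes. The untested FOLR1 does too, but its nearest values, 3 reads (sh-NC library 1) and 2 reads (sh-KLF5 library 1), are near the detection limit. The groups overlap for PAX8, ESR1, MECOM and WFDC2.

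PAX8 (ENSG00000125618) lies on the minus strand of chromosome 2 (GRCh38), from 113215997 to 113278950, with 13 transcripts in GENCODE release 29. Control libraries 1, 2 and 3 held 390.1, 336 and 330.0 normalized counts of PAX8. Knockdown libraries 1, 2 and 3 held 259.9, 399.8 and 248.7. The highest and the lowest of the 6 values both came from knockdown libraries, so the groups overlapped. Means were 352 ± 33.1 in control and 303 ± 84.2 in knockdown libraries (SD, n = 3). The log2 fold change was -0.25 (SE 0.18, 95% interval -0.62 to 0.12, limma adjusted p = 0.407), and at its lower end this interval allows a 1.54-fold lower level. Without knockdown library 2 the log2 fold change was -0.46 (limma adjusted p = 0.0826), a move of over 1.5 times that left PAX8 short of the threshold.

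PAX8-AS1, a noncoding transcript on the opposite strand, shares 685 exonic bases with PAX8, which is 9.26% of the exonic bases of PAX8. Whether the counting used strand is not given in the sources used here, so reads on the shared bases cannot be told apart. PAX8-AS1 averaged 1056 ± 70.4 and 1038 ± 137 normalized counts (SD, n = 3) in control and knockdown libraries, and it did not pass the test (log2 fold change -0.03, limma adjusted p = 0.911). Within libraries, the log2 ratio of PAX8 to PAX8-AS1 was -1.58 ± 0.068 in control and -1.80 ± 0.26 in knockdown cells (SD, n = 3), a difference of -0.22. By an exact two-sided permutation test its p was 0.4 (adjusted 0.4 over 3 such ratios, all chosen after values were seen), and 0.1 is the smallest p this design allows.

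RefSeq promoter windows (GRCh38.p14) matched 5 of the 7 genes by symbol (PAX8, MUC16, WFDC2, ESR1 and MECOM). Those of PAX8, MUC16 and WFDC2 are shown because these genes had enough reads to be tested. The 250 bases before each start were searched on both strands for the letters CACCC, as Krüppel-like factors are known to bind. A second search on both strands was for GGGCGG, the GC box. Matches of the pair can share bases. Capitals mark every match, in the reading direction of the gene, so a match on the other strand appears as its reverse complement. The windows are chr2:113278922-113279171 (minus strand) for PAX8, chr19:9065752-9066001 and chr19:9010410-9010659 (minus strand) for an outer and an inner start of MUC16, and chr20:45469503-45469752 (plus strand) for WFDC2.
PAX8: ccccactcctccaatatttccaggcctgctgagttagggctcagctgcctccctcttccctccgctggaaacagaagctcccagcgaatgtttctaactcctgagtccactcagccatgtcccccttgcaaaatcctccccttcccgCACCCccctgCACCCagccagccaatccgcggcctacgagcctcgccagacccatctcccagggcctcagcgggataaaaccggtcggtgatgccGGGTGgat
MUC16 outer: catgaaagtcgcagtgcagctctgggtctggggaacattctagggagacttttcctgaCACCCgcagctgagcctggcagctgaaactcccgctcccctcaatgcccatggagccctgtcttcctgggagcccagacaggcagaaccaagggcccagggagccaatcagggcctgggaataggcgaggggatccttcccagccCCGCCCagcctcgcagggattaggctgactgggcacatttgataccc
MUC16 inner: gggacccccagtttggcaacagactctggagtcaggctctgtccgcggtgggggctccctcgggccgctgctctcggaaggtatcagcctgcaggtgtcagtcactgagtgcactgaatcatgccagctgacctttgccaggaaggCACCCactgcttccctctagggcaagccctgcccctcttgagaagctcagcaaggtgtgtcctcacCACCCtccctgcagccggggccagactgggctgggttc
WFDC2: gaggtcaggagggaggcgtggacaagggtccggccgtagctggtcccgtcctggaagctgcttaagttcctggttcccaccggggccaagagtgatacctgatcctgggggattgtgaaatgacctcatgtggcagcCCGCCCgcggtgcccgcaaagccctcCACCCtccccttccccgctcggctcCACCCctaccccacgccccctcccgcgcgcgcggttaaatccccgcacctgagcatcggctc
CACCC was found 3 times before PAX8, 1 time before the outer start of MUC16, 2 times before its inner start and 2 times before WFDC2. GGGCGG was found 1 time before the outer start of MUC16 and 1 time before WFDC2, and had no match in the other windows shown. Of 35093 RefSeq windows of this length, 54.7% held CACCC, 42.6% held GGGCGG and 27.2% held both, so the matches are common letters and describe no site. The RefSeq starts lay 29 bases inside the gene model of the deposited table for PAX8 and 47 bases inside it for WFDC2. Those of MUC16 lay 84409 and 29067 bases upstream of its gene model.

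MUC16 (ENSG00000181143) spans 8848844 to 8981342 on the minus strand of chromosome 19, and its longest coding transcript in GENCODE release 29 has 84 exons. Control libraries 1, 2 and 3 held 124, 87 and 54 reads of MUC16, or 115.5, 85.7 and 57.3 normalized counts. Knockdown libraries 1, 2 and 3 held 15, 35 and 41 reads, or 15.3, 34.0 and 41.1 normalized counts. The groups did not overlap, and the nearest values came from control library 3 and knockdown library 3. Means were 86.2 ± 29.1 and 30.1 ± 13.3 (SD, n = 3). The log2 fold change was -1.54 (SE 0.35, 95% interval -2.29 to -0.79, limma adjusted p = 0.00737), a 2.91-fold lower level with an interval of 1.73-fold to 4.88-fold on the log2(value + 1) scale. With each library left out in turn it lay between -1.81 and -1.13, with adjusted p between 0.00287 and 0.0485 (limma), and MUC16 was called in all 6 fits. The value of -1.13 came without knockdown library 1, which held the fewest reads of MUC16.

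The 3 protein-coding genes with log2 values nearest to those of MUC16 over the 6 libraries, each centred on its mean, were FBLN7, TMPPE and TENM3, at Euclidean distances of 0.556, 0.643 and 0.688. TENM3, a membrane adhesion protein of the teneurin family, averaged 345 normalized counts in control and 109 in knockdown libraries. Its log2 fold change was -1.66 (limma adjusted p = 3.65e-05), that of TMPPE -1.27 (0.0279) and that of FBLN7, a fibulin, -1.23 (0.130). The nearness rests on 6 libraries that share 1 contrast.

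MSLN (ENSG00000102854) spans 760762 to 768865 on the plus strand of chromosome 16. Its normalized counts were 230.9, 205.9 and 240.9 in control libraries 1, 2 and 3. Knockdown libraries 1, 2 and 3 held 122, 152 and 140.4. The gap between the groups was wider than the range within either group. Means were 225.9 ± 17.99 and 138 ± 15.1 (SD, n = 3), and the log2 fold change was -0.71 (SE 0.17, 95% interval -1.06 to -0.36, limma adjusted p = 0.00868), a 1.63-fold lower level. MSLN passed the adjusted p and not the fold threshold. Without control library 3 its adjusted p was 0.0520 (limma, log2 fold change -0.66).

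MUC16 and its binding partner MSLN were compared by their log2 ratio within each library. The ratio was -0.99, -1.25 and -2.05 in control libraries 1, 2 and 3, and -2.92, -2.13 and -1.75 in knockdown libraries 1, 2 and 3. The groups overlapped, and the mean differed by -0.83 (exact two-sided permutation p = 0.2, adjusted 0.3), so a larger fall of MUC16 than of MSLN was not shown. MSLNL, a paralog of MSLN named after its values were seen, had 29, 24 and 7 reads in control and 2, 11 and 13 in knockdown libraries, with overlapping groups (log2 fold change -1.18, limma adjusted p = 0.248).

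WFDC2 (ENSG00000101443) spans 45469706 to 45481532 on the plus strand of chromosome 20. Control libraries 1, 2 and 3 held 28.9, 35.5 and 54.1 normalized counts of WFDC2, from 31, 36 and 51 reads. Knockdown libraries 1, 2 and 3 held 69.3, 72.8 and 43.1, from 68, 75 and 43 reads. Knockdown libraries 1 and 2 lay above all controls, and knockdown library 3 lay under control library 3. Means were 39.5 ± 13.1 and 61.7 ± 16.2 (SD, n = 3). The log2 fold change was 0.64 (SE 0.30, 95% interval 0.0086 to 1.28, limma adjusted p = 0.184), and the unadjusted p of limma was 0.0473.

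Set against MSLN, the secreted WFDC2 had the opposite sign of change. Its log2 ratio to MSLN was -2.96, -2.50 and -2.13 in control libraries 1, 2 and 3, and -0.81, -1.06 and -1.68 in knockdown libraries 1, 2 and 3. The groups did not overlap, and the mean differed by 1.35 (exact two-sided permutation p = 0.1, adjusted 0.3). This pair was chosen after values were seen, and 0.1 is the smallest p this design allows. WFDC2 alone did not pass the test.

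**Figure D2:**
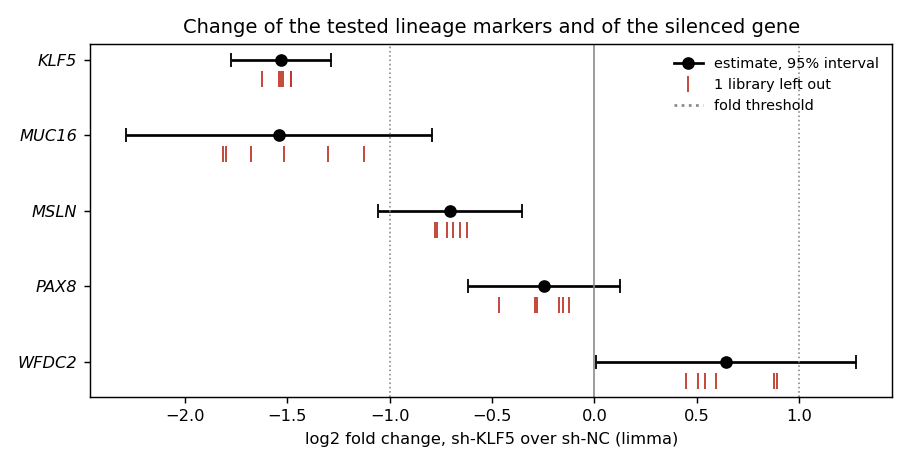
log2 fold change of sh-KLF5 over sh-NC (x axis) for KLF5 and the 4 tested lineage markers, with the limma estimate and 95% interval in black, estimates with 1 library left out as red ticks, and the fold threshold as dotted lines. The ticks of MUC16 run from -1.81 to -1.13, all beyond the threshold, and the interval of PAX8 spans 0.

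FOLR1, ESR1 and MECOM stood near the detection limit. A count of 0 allows up to 3 reads, or 2.79 to 3.18 normalized counts depending on the library, and this limit and the intervals below cover counting error only. FOLR1 (ENSG00000110195, chromosome 11, 72189558 to 72196323) gave 3, 5 and 19 reads in control libraries 1, 2 and 3. Knockdown libraries 1, 2 and 3 gave 2, 0 and 0. All knockdown libraries were lower, and control library 3 held 70.4% of the control reads. The normalized ratio of summed reads, knockdown over control, was 0.0750 (exact binomial 95% interval 0.00864 to 0.298), and 0.173 (0.0179 to 0.865) without control library 3. The means differed with an exact two-sided permutation p of 0.1, the smallest this design allows.

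ESR1 (ENSG00000091831, chromosome 6, 151656691 to 152129619) gave 20, 8 and 6 reads in control libraries 1, 2 and 3, and 9, 9 and 5 in knockdown libraries 1, 2 and 3. The groups overlapped, and the ratio was 0.684 (exact binomial 95% interval 0.385 to 1.196, exact two-sided permutation p = 0.6). Of its exonic bases, 135 are shared with AL078582.1, a transcript on the same strand. MECOM (ENSG00000085276, chromosome 3, 169083499 to 169663618), a zinc finger factor, gave 2, 6 and 1 reads in control libraries 1, 2 and 3, and 8, 2 and 5 in knockdown libraries 1, 2 and 3. Its groups also overlapped, and the ratio was 1.69 (0.691 to 4.37, exact two-sided permutation p = 0.5). No difference in ESR1 or MECOM was detected, also with no filter on low counts (limma adjusted p = 0.762 and 0.684). Their few reads limit what could be detected.

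Levels of different genes were compared per kilobase of exon, as normalized counts over the exonic length in the table. In control libraries MSLN stood highest at 88.2 ± 7.03 per kilobase, then PAX8 at 47.6 ± 4.48 and WFDC2 at 28.6 ± 9.48 (SD, n = 3). Each of these did not overlap with the next gene in the order. For MSLN and PAX8 this depended on the length used, since over the longest coding transcript of each gene the control libraries held 85.2 to 99.6 per kilobase for MSLN and 79.5 to 94.0 for PAX8, which overlap. FOLR1 followed at 5.64 ± 5.75, MUC16 at 1.97 ± 0.663, ESR1 at 0.791 ± 0.482 and MECOM at 0.324 ± 0.286 (SD, n = 3), and neighbours among these 4 overlapped. The 16074 protein-coding genes listed had a median of 58.9 per kilobase, and by the same exonic length MSLN alone of the list stood above it. MSLN was at percentile 57.9 of these genes, PAX8 at 46.5, WFDC2 at 39.6 and MUC16 at 18.2. MUC16 spreads its reads over 43830 exonic bases, against 1382 for WFDC2. In knockdown libraries MSLN ranged from 47.8 to 59.5 per kilobase, WFDC2 from 31.2 to 52.7 and PAX8 from 33.6 to 54.0, so the top of the order overlapped there. Of the lineage markers with a row, MSLN, PAX8, MUC16 and WFDC2 had enough reads to be tested. MUC16 was low per length, though its control libraries held 124, 87 and 54 reads, against 31, 36 and 51 for WFDC2. FOLR1, ESR1 and MECOM were near the detection limit.

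**Figure D3:**
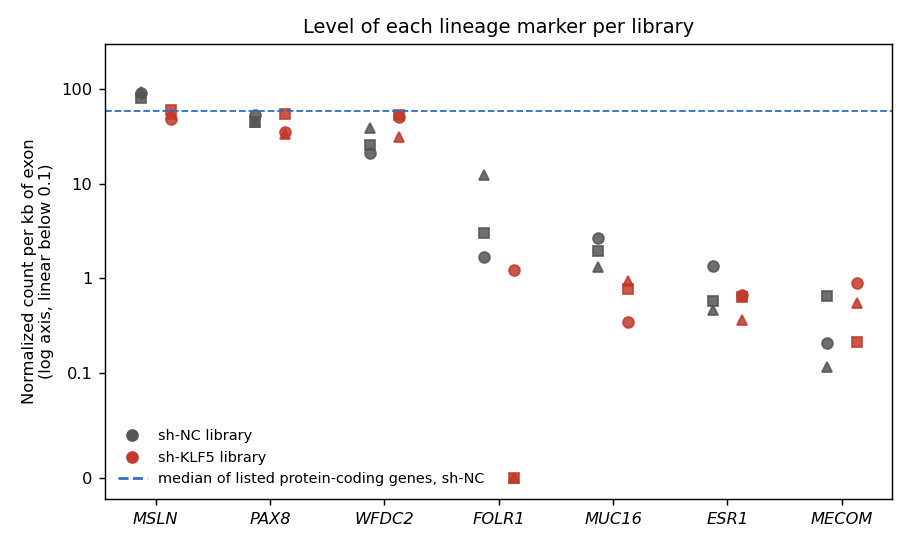
Normalized count per kilobase of exon (y axis, logarithmic, linear below 0.1) of the 7 lineage markers in each sh-NC (grey) and sh-KLF5 (red) library, with the control median of listed protein-coding genes as a dashed line. The sh-NC libraries of MSLN lie above the line at 58.9, and FOLR1 is at 0 in sh-KLF5 libraries 2 and 3.

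Genes related to the lineage markers were read from lists set by name, also with earlier results of these data known. Of 16 Müllerian transcription factors and paralogs of the listed factors, 11 were tested. At an adjusted p under 0.05 (limma), 1 rose and 2 fell, beside 6.04% of all tested genes that rose and 6.85% that fell. The median log2 fold change of the list was 0.25. MEIS1, a homeobox cofactor of HOX proteins, fell from 182 ± 34.0 to 66.7 ± 10.1 normalized counts (SD, n = 3, log2 fold change -1.43, limma adjusted p = 0.000163) and was the 1 called gene. Its relative MEIS2 fell by 0.53 on the log2 scale (limma adjusted p = 0.0318), and the zinc finger factor GATA6 rose by 0.58 (0.00357). PAX2, a paralog of PAX8, averaged 69.1 ± 4.42 and 78.7 ± 5.82 normalized counts in control and knockdown cells (SD, n = 3) and did not pass the test (limma adjusted p = 0.626). The patterning genes HOXA9, HOXA10 and HOXA11 had log2 fold changes of 0.25, 0.37 and 0.38 and SOX7 one of -0.16, none past the threshold (limma adjusted p = 0.308, 0.282, 0.216 and 0.709). PRDM16, the paralog of MECOM, had a log2 fold change of 0.83 at a limma adjusted p of 0.053. FOXJ1 and EMX1 had 7 reads or fewer in every library.

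Of 24 other antigens of ovarian carcinoma, 11 were tested. At an adjusted p under 0.05 (limma), 4 fell, beside 6.85% of all tested genes that fell and 6.04% that rose. The median log2 fold change of the list was -0.16. None rose, and the count of higher genes was 0 also at an unadjusted p under 0.05 and in edgeR and DESeq2. The membrane mucin MUC1 fell from 583 ± 20.4 to 254 ± 35.6 normalized counts (SD, n = 3, log2 fold change -1.202, limma adjusted p = 2.06e-05). The kallikrein KLK10 fell by 2.36 on the log2 scale (limma adjusted p = 1.89e-05), the retinoic acid binding protein CRABP2 by 1.93 (0.000463) and the tight junction gene CLDN4 by 0.85 (0.0443). MUC1, KLK10 and CRABP2 were called. The count of lower genes was 4 in edgeR and 3 in DESeq2, where CLDN4 had an adjusted p of 0.0567. EPCAM, CD24 and the protease inhibitors SLPI, SPINT1 and SPINT2 had log2 fold changes from -0.51 (SLPI) to 0.02 (SPINT1), none past the threshold. CHI3L1 had 0 reads in all control libraries and 9, 18 and 3 in knockdown libraries 1, 2 and 3, and was left out by the filter.

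Of 20 genes around the estrogen receptor, 16 were tested. At an adjusted p under 0.05 (limma), 3 rose and 1 fell, beside 6.04% of all tested genes that rose and 6.85% that fell. The median log2 fold change of the list was 0.08. CCND1, which encodes cyclin D1, rose from 1506 ± 125 to 2616 ± 99.6 normalized counts (SD, n = 3, log2 fold change 0.80, limma adjusted p = 0.000129). The corepressor NRIP1 rose by 0.50 on the log2 scale (limma adjusted p = 0.0312). GATA3, a zinc finger factor, rose by 1.68 (limma adjusted p = 0.0171), from 10, 7 and 5 reads in control to 27, 17 and 33 in knockdown libraries. GPER1, a membrane estrogen receptor, fell from 39, 51 and 28 reads to 3, 0 and 5 (limma adjusted p = 0.000503). GATA3 and GPER1 were called. ESR2, the paralog of ESR1, had a log2 fold change of 0.43 (limma adjusted p = 0.396), and the coregulators NCOR1 and NCOA3 ones of -0.27 and -0.13, none past the threshold. XBP1 and IGFBP4 did not pass either. PGR, a known target of ESR1, never exceeded 6 reads.

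Of 15 genes of folate uptake and metabolism, 13 were tested. At an adjusted p under 0.05 (limma), 2 fell, beside 6.85% of all tested genes that fell and 6.04% that rose. The median log2 fold change of the list was -0.05. None rose, also at an unadjusted p under 0.05 and in edgeR and DESeq2, each with a count of 0. The mitochondrial enzyme MTHFD2 fell by 0.90 on the log2 scale (limma adjusted p = 7.1e-05). SLC19A1 and SLC46A1, carriers that take folate up beside FOLR1, had log2 fold changes of 0.08 and 0.27 (limma adjusted p = 0.733 and 0.231). The count of lower genes was 2 in edgeR and 3 in DESeq2, which added the methionine synthase MTR (DESeq2 adjusted p = 0.0370, limma 0.0565). The enzymes MTHFD1, MTRR, FPGS, SHMT1 and SHMT2 did not pass the test in limma. FOLR3, a paralog of FOLR1, had 3 reads or fewer in every library.

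**Figure D4:**
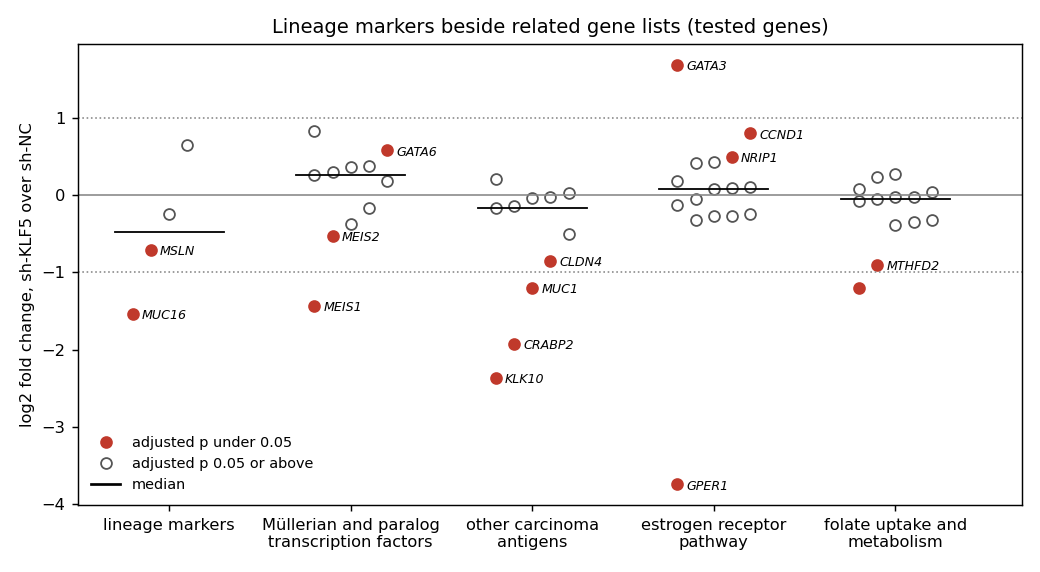
log2 fold change of sh-KLF5 over sh-NC (y axis) of each tested gene in the lineage markers and the 4 related lists (x axis), filled at a limma adjusted p under 0.05, with a bar at the median and dotted lines at the fold threshold; filled genes named in the text carry their symbol. The 4 filled antigens lie under 0, and GPER1, with 5 reads or fewer in each sh-KLF5 library, has a position that depends on the pseudocount.

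Markers of cell types moved in part with MUC16 and MSLN. Over all tested genes, 6.85% were lower and 6.04% higher at an adjusted p under 0.05 (limma). Of 6 epithelial markers, the keratins KRT7, KRT8 and KRT18 fell (limma adjusted p = 0.00112, 4.35e-05 and 0.00343), while CDH1, EPCAM and KRT19 did not pass the test. The summed level of this list was 51699 to 63361 normalized counts in control and 26955 to 36873 in knockdown libraries. This sum is mostly KRT7, KRT8 and KRT18 (control means 32104, 21816 and 3696), against 120 for EPCAM, 151 for CDH1 and 6.19 for KRT19. Of 8 mesothelial markers, genes of a cell type that also makes MSLN and MUC16, 4 were tested and UPK3B and BNC1 fell (limma adjusted p = 0.0244 and 0.000577). PDPN and THBD did not pass the test (log2 fold change 0.63 and -0.09, limma adjusted p = 0.346 and 0.875). The summed level of the 8 markers was 239 to 322 in control and 168 to 190.2 in knockdown libraries. CALB2 had 6, 2 and 1 reads in control and 5, 13 and 2 in knockdown libraries, with overlapping groups. KRT5, LRRN4 and UPK1B stayed at 6 reads or fewer in every library. Of 5 fibroblast markers, 4 were tested and DCN, PDGFRA and COL3A1 fell, and the sum was 1046 to 1507 in control and 347 to 637 in knockdown libraries. None of the 3 tested granulosa and sex cord markers of 7 passed by limma, edgeR or DESeq2 (0 also at an unadjusted p under 0.05). That list summed to 673 to 777 in control and 741 to 819 in knockdown libraries, mostly from FOXL2. Of 5 leukocyte markers only CD14 was tested, with sums of 149 to 223 and 190.5 to 379 and PTPRC at 1 read or none in every library. Of 4 endothelial markers only PECAM1 was tested (limma adjusted p = 0.172), with sums of 66.1 to 87.0 and 34.1 to 73.7. The part of these movements in the falls of MUC16 and MSLN was not tested.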

How the data were processed

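PolyA RNA of control and KLF5 knockdown SKOV3 cells was measured in 6 libraries, grouped by their titles and genotype labels. The submitters' processing notes name HISAT2 2.0.5, featureCounts 1.5.0-p3, DESeq2 1.20.0 and hg38. The authors deposited a normalized signal per gene and library, that is the read count over 1 size factor per library, beside group means, fold changes and p-values of their own, which were not used. Coordinates of 29180 genes equal those of GENCODE release 29.

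Each library's values were whole multiples (100%, tolerance 1e-06) of its smallest value above 0, which gave the reads. Genes left by filterByExpr (minimum count 10) were fitted with limma 3.58.1 in R 4.3.3 (trend, robust) on log2(value + 1). Alternatives were edgeR 4.0.16 and DESeq2 1.42.0 on the reads, other scalings, pseudocounts, filters and call rules, a replicate block, and each library left out. The fit was tested on simulated data with an assumed spread equal in both groups. That setting does not cover the wider spread seen between knockdown libraries. Libraries of a group differed by more than sampling noise. Chi-square per degree of freedom was 4.66 to 9.33 between control libraries and 11.6 to 34.3 between knockdown libraries.

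Members and lists were chosen with earlier results of these data known. The rule for named genes took KLF5, all members, genes overlapping a member's exons, called list genes, up to 6 others per list by mean level, and the 3 genes nearest to a called member. Of the antisense list of 3 genes, PAX8-AS1 was tested. MSLNL, PAX2, PRDM16, FOXJ1, EMX1, CLDN4, CHI3L1, NRIP1, ESR2, PGR, SLC19A1, SLC46A1, FOLR3 and MTR fell outside this rule and were named after their values were seen. Some list genes are not reported here. Figures were drawn with matplotlib 3.10.9.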

Additional observations from a re-analysis of the deposited data

How the results depend on the processing

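MUC16 was called lower, and no lineage marker was called higher, under every alternative run. The count called lower, 1 as reported, was 2 with no filter on low counts (MUC16 and FOLR1), 2 with edgeR and no filter (an alternative chosen after seeing the data; MUC16 and FOLR1) and 2 by adjusted p with no fold threshold (MUC16 and MSLN). FOLR1 had adjusted p-values of 0.0184 in limma, 0.0102 in edgeR and 0.0737 in DESeq2 with no filter. The count at an adjusted p under 0.05, 2 as reported, was 3 with no filter in limma and in edgeR (MUC16, MSLN and FOLR1). It ranged from 1 to 2 with 1 library left out, and was 1 without sh-NC replicate 3, when MSLN was at 0.0520 (limma). Across the 12 alternatives that kept all libraries, log2 fold changes ranged from -1.58 to -1.41 for MUC16, -0.75 to -0.69 for MSLN, -0.29 to -0.22 for PAX8, 0.59 to 0.66 for WFDC2 and -1.57 to -1.52 for KLF5. With 1 library left out they ranged from -0.78 to -0.62 for MSLN, -0.46 to -0.12 for PAX8, 0.45 to 0.89 for WFDC2 and -1.62 to -1.48 for KLF5. Deviations of same-numbered libraries correlated at 0.059, 0.033 and 0.050, and each control library correlated best with the knockdown library of its own number. These correlations are low, and whether same-numbered libraries were prepared together is not given in the sources used here. With the replicate block, 1 marker was called lower, 0 higher, and 2 had an adjusted p under 0.05, while calls over all genes were 327 higher and 567 lower against 301 and 533. With the fold set aside, 1292 genes were higher and 1383 lower at a limma adjusted p under 0.05 with the block, against 955 and 1083. Depth limits FOLR1, ESR1 and MECOM, at 20 reads or fewer in every library. With the longest coding transcript as length, the order per kilobase was the same, but PAX8 moved from 47.6 to 84.8 and WFDC2 from 28.6 to 48.3 in control libraries, and MSLN and PAX8 then overlapped.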

Other observations

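FOXL2, a transcription factor of granulosa cells, averaged 677 ± 59.1 and 716 ± 47.1 normalized counts in control and knockdown libraries (SD, n = 3, log2 fold change 0.08, limma adjusted p = 0.718). Per kilobase of exon it stood at 232 normalized counts in control libraries, above each of the 7 lineage markers. CYP19A1, which encodes aromatase, had 5, 4 and 0 reads in control and 11, 14 and 7 in knockdown libraries, under the filter. CD14, a receptor of monocytes, averaged 187 ± 36.6 and 305 ± 101 normalized counts (SD, n = 3, log2 fold change 0.66). It missed the threshold in limma (adjusted p = 0.0725) and passed it in edgeR and in DESeq2, with knockdown library 3 inside the control range. PDGFRA had 99, 70 and 56 reads in control libraries 1, 2 and 3, and 0, 0 and 2 in knockdown libraries 1, 2 and 3. These genes were singled out after their values were seen.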
